A study of Sus scrofa with 8 samples.

Results

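Lipid-associated macrophages are described here through 8 marker genes in the liver of pigs before and after a steatotic diet: TREM2, GPNMB, SPP1, LGALS3, CD9, CD68, LOC100520753 and LPL. The genes were taken by their symbols from a table of FPKM, a fragment count scaled to transcript length and to the mapped fragments of the library, of 18103 genes, and each symbol matched 1 row. They were chosen with their difference between the groups and their common pattern over the pools already known from these data. Both are therefore given as a description, without a test. Hepatic RNA came from male Landrace x Large White pigs. The initial state was sampled by biopsy at 4 months of age, before the dietary intervention. Steatosis denotes these animals 2 months later, sampled after euthanasia at 6 months of age, once they had received the steatotic diet throughout. That diet was rich in saturated fat, cholesterol, cholate and fructose and poor in methionine and choline. Each group had 4 RNA pools, and each pool held equal amounts of RNA from 2 pigs. A replicate is thus a pool, and the SD given below is between pools. The diet, the age and the way of sampling changed together and cannot be told apart.

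Macrophages that meet an excess of lipid, in obese adipose tissue, in atherosclerotic plaques and in fatty liver, adopt a state first defined by single-cell RNA sequencing and known as lipid-associated. TREM2, a surface receptor for phospholipids and lipoproteins, drives much of this programme through the adaptor TYROBP, and the cells produce lysosomal, lipid-binding and secreted proteins. Several of these genes are also expressed elsewhere: SPP1 in bile duct cells, GPNMB in osteoclasts and melanocytes, LPL in adipose tissue and muscle. The liver also holds resident macrophages, the Kupffer cells, that carry other markers.

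The study designed RT-qPCR primers for 4 of the 8 genes. They are shown because their label, not their sequence, tells which of the genes annotated as macrosialin the assay named CD68 was listed under. By that label the primers are those of LOC100520753 on chromosome 8, not of the gene with the symbol CD68 on chromosome 12. The primer sequences were not aligned to either gene here. No primers of TREM2, CD9, LPL or the chromosome 12 gene were found in the material used here. All sequences run from 5′ to 3′.
LOC100520753 sense: ggtgcggttgtctcagttac
LOC100520753 antisense: cctccacccagagtccatct
GPNMB sense: cgccaaacggtttcaggatg
GPNMB antisense: aacatatgggtcgggggatg
LGALS3 sense: tctggaccactgaatgtgcc
LGALS3 antisense: gagcatcattgaccgcaacc
SPP1 sense: cacattgtagcgaggtggga
SPP1 antisense: gaccgtcgactaaaccctga

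FPKM values were used as deposited. They summed to between 511863 and 545731 per library, and the reads behind each value were not analysed here. The log2 fold change of each gene, steatosis against the initial state, was estimated with limma on log2(FPKM + 0.1). Genes entered when 4 or more libraries reached 0.3 FPKM, which left 13175 genes and kept all 8 marker genes. A gene passed the limits when its estimate exceeded 1 in either direction and its Benjamini-Hochberg adjusted p lay below 0.01. The median estimate over the tested genes was 0.25, and this shift underlies all values given below. After scaling of the libraries by median ratio, in which each is compared with the average library, that median was -0.01. Pool 1 of the initial state stood apart, since it held transcripts of skeletal muscle, stomach and adipose tissue. Where that pool decided a call or an order, the value without it is also given.

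TREM2 (gene 100737974, chromosome 7 of Sscrofa11.1, 36465921 to 36471509) encodes the lipid-sensing receptor of these cells. Its FPKM was 0.12, 0.29, 0 and 0 in initial pools 1 to 4, and 5.28, 5.71, 6.54 and 4.01 in steatosis pools 1 to 4. All steatosis pools lay above all initial pools, and the lowest of them was 13.8 times the highest initial value. The mean was 0.102 ± 0.137 FPKM (SD, n = 4 pools) at the start and 5.38 ± 1.06 FPKM in steatosis, and the log2 fold change was 4.98 (SE 0.42). In genes of about the same length, between 925 and 1025 bases, the commonest low value was 0.06 FPKM in all 8 libraries, so the initial values lay near the smallest that could be recorded. For this reason the size of the fold change depended on the pseudocount, and it was 2.53 with a pseudocount of 1. In bulk liver RNA, fewer cells of a type and less RNA per cell cannot be told apart, which holds for every value given here.

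GPNMB (gene 100049669, chromosome 9, 92037428 to 92071501) encodes a transmembrane glycoprotein of lysosomes and is a target of the MiT/TFE transcription factors. It had the highest FPKM of the 8 genes in every library. The initial pools held 17.6, 32.61, 22.91 and 23.24 FPKM, and the steatosis pools 671.17, 1096.22, 932.03 and 405.14 FPKM. The groups did not overlap, steatosis pools 2 and 3 were the highest and pool 4 was the lowest. The mean went from 24.1 ± 6.24 to 776 ± 303 FPKM (SD, n = 4 pools), a 32.2-fold difference with a log2 fold change of 4.94 (SE 0.29). Ordered by FPKM within its library, GPNMB stood at places 2534, 1579, 2045 and 1942 of all genes in initial pools 1 to 4, and at places 115, 57, 75 and 207 in steatosis. Melanocytes and osteoclasts also express GPNMB. The 4 melanocyte genes found of 5 together held 0.19 to 0.27 FPKM in the initial state and 0.5 to 0.7 FPKM in steatosis. The 8 osteoclast genes together held 18.6 to 21.0 FPKM and then 165 to 274 FPKM, and their part in the GPNMB values was not tested.

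SPP1 (gene 397087, chromosome 8, 131077786 to 131085334) encodes osteopontin, a secreted phosphoprotein that binds integrins and CD44. Initial pools 1 to 4 were at 4.68, 9.64, 4.16 and 6.01 FPKM, and the steatosis pools at 74.38, 226.52, 201.44 and 103.63 FPKM. Again no values were shared between groups, and pools 2 and 3 were well above pools 1 and 4. The mean went from 6.12 ± 2.47 to 151 ± 73.8 FPKM (SD, n = 4), with a log2 fold change of 4.54 (SE 0.37). SPP1 is also a gene of cholangiocytes, the cells of the bile ducts. The summed FPKM of the 5 cholangiocyte markers listed was 23.78, 10.9, 10.68 and 22.79 in steatosis pools 1 to 4, so it was highest where SPP1 was lowest. Their defining keratin, KRT19, was also higher in pools 1 and 4, with 4.76, 2.2, 2.14 and 8.13 FPKM in the same pools against 1.2 to 8.02 FPKM in the initial state.

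LGALS3 (gene 100038033, chromosome 1, 184478639 to 184496155) encodes galectin-3, a beta-galactoside-binding lectin secreted by activated macrophages. It had the largest log2 fold change of the 8 genes and the second largest log2 fold change of the 13175 tested. Initial values were 6.47, 5.11, 3.16 and 2.58 FPKM, and values in steatosis were 266.19, 360.45, 306.22 and 166.56 FPKM. The lowest steatosis pool was 25.7 times the highest initial pool. Between pools of the same number, the ratio of steatosis to the initial state was 41.1, 70.5, 96.9 and 64.6. The means were 4.33 ± 1.79 and 275 ± 81.9 FPKM (SD, n = 4), and the estimated log2 fold change was 5.99 (SE 0.31). Within its library, LGALS3 moved from between places 5403 and 7932 to between places 227 and 392.

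CD9 (gene 397067, chromosome 5, 64420177 to 64459783) encodes a tetraspanin, a membrane organiser found on many cell types. It differed least of the 8. The initial pools held 10.75, 8.24, 6.74 and 6.67 FPKM and the steatosis pools 28.42, 31.27, 32.8 and 24.11 FPKM. Groups did not overlap, and the spread within steatosis was small. The mean went from 8.10 ± 1.91 to 29.2 ± 3.82 FPKM (SD, n = 4), with a log2 fold change of 1.85 (SE 0.16).

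CD68 (gene 103158530, chromosome 12, 52874754 to 52877256) and LOC100520753 (chromosome 8, 28306225 to 28310187) are both annotated as macrosialin, a heavily glycosylated protein of the lysosomal membrane used in histology to count macrophages. The files name the chromosome 8 gene only by its likeness to predicted macrosialins of other mammals, and they also give it mucin entries. CD68 was present at the start, with 7.33, 13.87, 12.86 and 11.22 FPKM, and reached 36.82, 63.78, 58.12 and 29.33 FPKM in steatosis. LOC100520753 was nearly silent in the initial state, with 0.27, 0.51, 1.29 and 0.07 FPKM, and measured 12.78, 19.69, 26.94 and 5.02 FPKM in steatosis. Neither gene had overlapping groups, and both were highest in steatosis pools 2 and 3 and lowest in pool 4. The means of CD68 were 11.3 ± 2.88 and 47.0 ± 16.5 FPKM (SD, n = 4), with an estimate of 2.01 on the log2 scale (SE 0.27). Those of LOC100520753 were 0.535 ± 0.535 and 16.1 ± 9.38 FPKM, with an estimate of 4.83 (SE 0.65), or 3.33 with a pseudocount of 1, and its CV in steatosis, 58.3%, was the largest of the 8 genes. Thus the gene under which the study lists the RT-qPCR assay differed 30.1-fold between the means and the gene with the symbol CD68 differed 4.15-fold. The FPKM of LOC100520753 per FPKM of CD68 was between 0.00624 and 0.1003 in the initial pools and between 0.171 and 0.464 in steatosis. Their transcript sequences were not compared here, and whether the estimation shared reads between both genes was not tested.

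LPL (gene 397537, chromosome 14, 4104761 to 4134964) encodes lipoprotein lipase, which releases fatty acids from circulating triglycerides. It was the exception among the 8 genes, because one initial pool was as high as steatosis. Initial pools 1 to 4 were at 6.59, 0.11, 0.27 and 0.05 FPKM, and the steatosis pools at 7.2, 11.43, 11.31 and 5.21 FPKM. Initial pool 1 lay above steatosis pool 4, so the groups overlapped. The mean was 1.76 ± 3.22 FPKM at the start and 8.79 ± 3.09 FPKM in steatosis (SD, n = 4), and the log2 fold change of 4.00 (SE 1.01) did not pass the limits. It was 2.36 with a pseudocount of 1. Without initial pool 1 it was 5.22 and passed them, as did then 8 of the 8 genes (5.91% of all genes), and the initial values left were at or below 0.27 FPKM.

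Genes of tissues other than liver were high in that pool. ACTA1, the actin of skeletal muscle, measured 1439.17 FPKM in initial pool 1, against 0.49, 4.08 and 10.51 in the other initial pools and at most 0.04 in steatosis. ADIPOQ, the adipocyte hormone adiponectin, measured 27.92 FPKM there, against at most 0.6 FPKM in the others of that group. TFF1, a peptide of the gastric mucosa, measured 726.95 FPKM there and 0 FPKM in all steatosis pools. As whole lists, 5 of 6 muscle genes were listed and summed to 2420.78 FPKM in that pool against 0.81 to 17.92 in the other initial pools, and the 5 stomach genes summed to 1487 FPKM against 5.38 to 27.6. The 5 adipose genes summed to 44.2 FPKM against 13.5 to 16.2, and ADIPOQ made up most of that sum. PLIN4 (3.8 against 0.78 to 1.04 FPKM) and LEP (0.4 against 0 FPKM) were also highest in that pool within the initial state. CIDEC (9.05 against 8.83 to 13.74 FPKM) and PLIN1 (3.01 against 1.53 to 3.29 FPKM) were not. FABP4 and CD36, a fatty acid-binding protein and a fatty acid receptor of both adipocytes and lipid-associated macrophages, were also high in that pool within the initial state. FABP4 was at 44.73, 2.59, 3.74 and 2.15 FPKM in initial pools 1 to 4 and at 41.86 to 53.59 FPKM in steatosis. CD36 measured 6.43, 0.89, 0.86 and 0.69 FPKM and then 7.81 to 15.71 FPKM, so that, unlike LPL and FABP4, its groups did not overlap. The part of muscle and adipose RNA in these values was not tested. Among the other marker genes, LGALS3 and CD9 were highest in that pool within the initial state, while CD68 and GPNMB were lowest there.

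**Figure D1:**
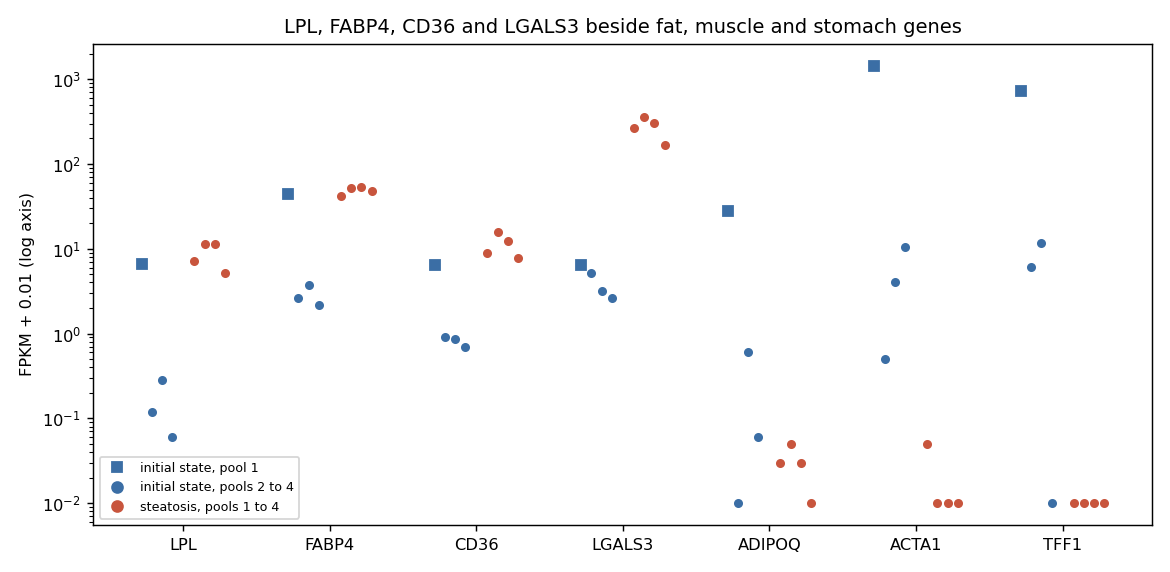
FPKM + 0.01 on a log axis for LPL, FABP4, CD36 and LGALS3 and for a gene each of adipose tissue (ADIPOQ), skeletal muscle (ACTA1) and stomach (TFF1), with squares for pool 1 of the initial state, blue circles for the other 3 initial pools and red circles for the 4 steatosis pools. The square of LPL, at 6.59 FPKM, lies among the red points of its gene as does that of FABP4, that of CD36 (6.43 FPKM) lies just below the lowest red point (7.81), and that of LGALS3 stays with its group.

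Seen together, 7 of the 8 genes passed the limits towards higher values in steatosis and none passed them towards lower values. Of all 13175 genes 6.01% passed towards higher values and 0.334% towards lower values. The groups did not overlap, with steatosis higher, in 7 of the 8 genes and in 29.6% of all genes. The number of marker genes was also 7 with the pool number as a replicate block (5.96% of all genes) and after scaling by the median ratio (3.12%). These counts follow from the choice of the genes. Their median log2 fold change was 4.69, and 4.44 after scaling by the median ratio. Of the 100 largest log2 fold changes, 6 were of these genes, and the other 2 genes, CD68 and CD9, stood at places 136 and 183 of 13175.

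**Figure D2:**
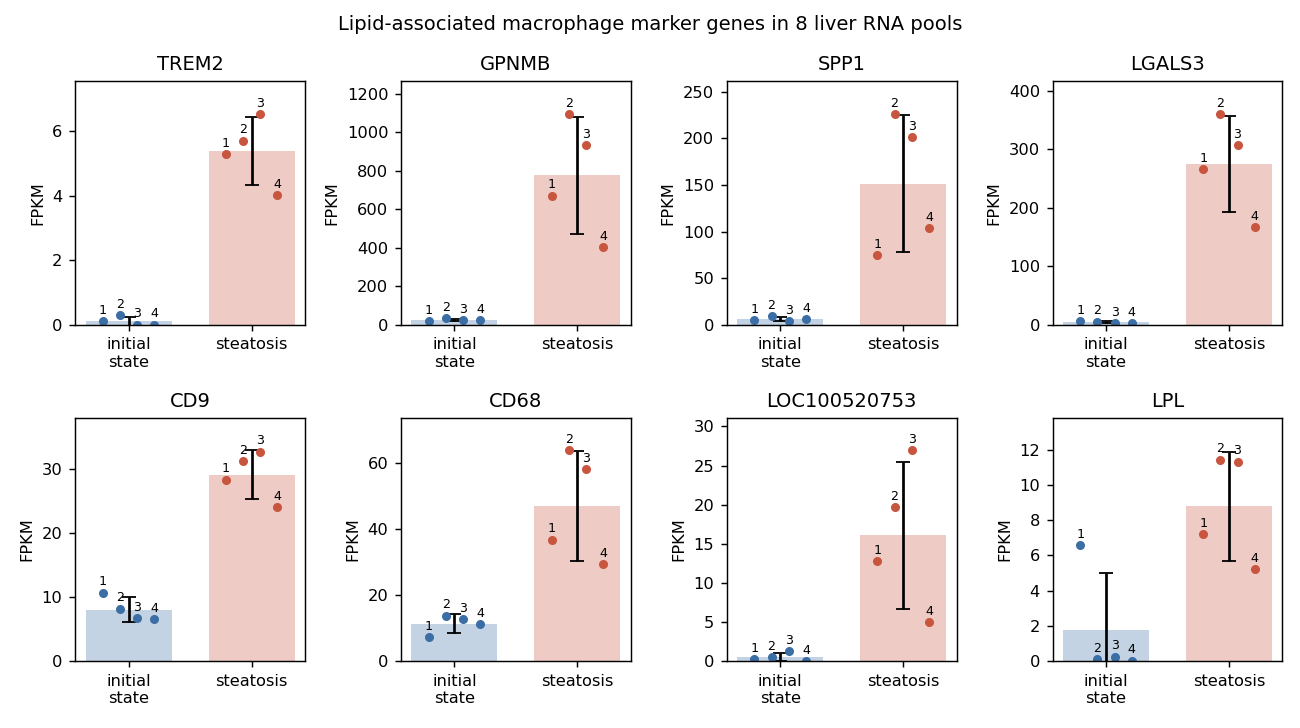
FPKM of the 8 marker genes in the 4 pools of the initial state (blue) and the 4 pools of steatosis (red), with points labelled by pool number, bars for the mean and error bars for the SD between pools. In all panels but LPL the red points lie above all blue points, and in all panels steatosis pools 2 and 3 lie above pools 1 and 4.

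The order of the levels changed as well. FPKM is per length, so levels can be compared between genes. In the initial state the order of the means was GPNMB, CD68, CD9, SPP1, LGALS3, LPL, LOC100520753 and TREM2. Without initial pool 1 LPL (0.143 ± 0.114 FPKM, SD, n = 3) came after LOC100520753 (0.623 ± 0.618 FPKM). In steatosis the order was GPNMB, LGALS3, SPP1, CD68, CD9, LOC100520753, LPL and TREM2. LGALS3 thus went from the fifth to the second place, above CD68 and CD9, and SPP1 from the fourth to the third. The steatosis values of GPNMB did not overlap those of LGALS3, and those of SPP1 did not overlap those of CD68. The other neighbours in that order overlapped over the pools. Within each steatosis pool, however, the order was the same, except that LPL (5.21 FPKM) was above LOC100520753 (5.02 FPKM) in pool 4.

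The steatosis pools differed among themselves in a common way. Pools 2 and 3 were both above pools 1 and 4 in 8 of the 8 genes, against 19.5% of all genes, and this also held for 8 of 8 after scaling by the median ratio, against 22.9% of all genes so scaled. Pool 4 was the lowest in 7 of the 8, SPP1 being the exception, against 22.5% of all genes. Relative to the mean of the 4 steatosis pools, the median of the 8 genes was 0.842, 1.31, 1.23 and 0.615 in pools 1 to 4. The 14 genes of macrophages in general had medians of 0.960, 0.983, 0.966 and 1.09 in the same pools, and the 10 genes of resident Kupffer cells 0.935, 1.08, 0.960 and 1.02. In pool 4, the lowest in the marker genes, the median of general macrophage genes was thus the highest of the 4 pools. Within that list, however, MSR1, MRC1 and ADGRE1 had the order of the marker genes. Pools 2 and 3 were both above pools 1 and 4 in 4 of its 14 genes, and pool 4 was lowest in 3. These counts were 10 and 9 of 17 further genes of lipid-associated macrophages, 4 and 3 of 6 osteoclast genes tested, 3 and 3 of 6 leukocyte genes, and 1 and 4 of 10 Kupffer cell genes. The order was thus not particular to the 8 genes. As pools 1 and 4 held other animals than pools 2 and 3, and no histology of single pools was used here, the source of this difference was not tested.

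**Figure D3:**
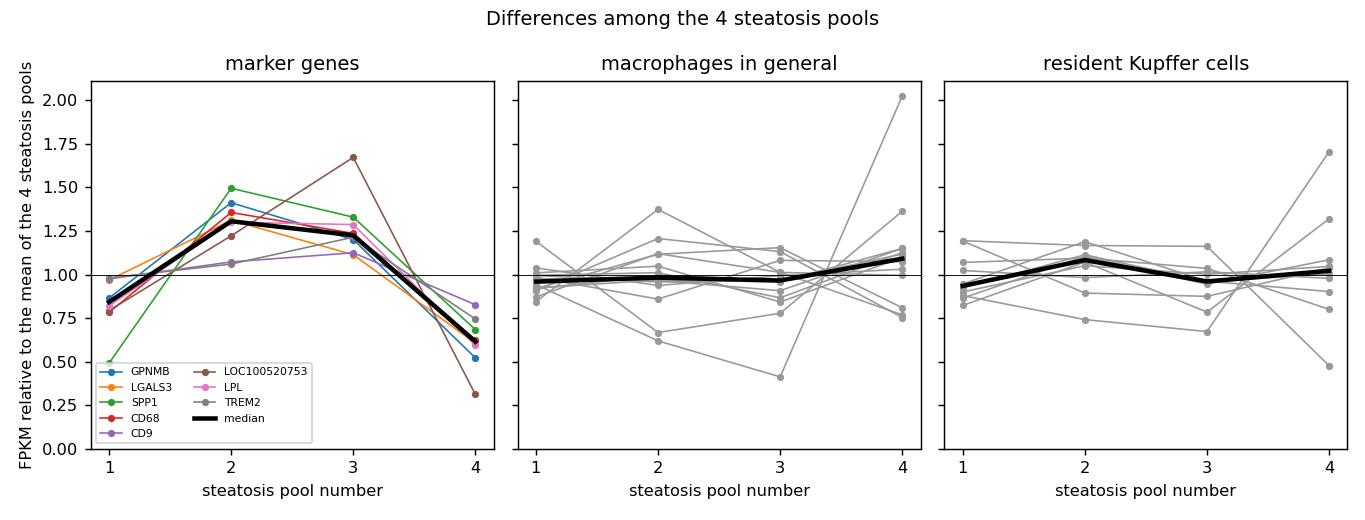
FPKM in each of the 4 steatosis pools divided by the mean of the 4 pools, for the 8 marker genes (left), the 14 genes of macrophages in general (middle) and the 10 genes of resident Kupffer cells (right), with a thin line per gene and a thick line for the median. The marker genes are high in pools 2 and 3 and low in pool 4, with a median of 0.615 there, while the medians of both other lists stay between 0.935 and 1.09.

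For co-variation over the 8 pools, each gene was expressed as the deviation of log2(FPKM + 0.1) from the mean of its group. Pearson's r is given as a description, since the points share libraries. Of the 28 pairs of genes 24 had an r above 0 and the median r was 0.42. The highest were LGALS3 with CD9 (0.937) and GPNMB with CD68 (0.934), and the lowest was CD68 with LPL (-0.364). The genes fell into a set of CD68, GPNMB and SPP1, with r of at least 0.74 within it, and a set of LGALS3, CD9 and TREM2, with r of at least 0.68. Without pool 1 of the initial state, which was left out after its values were seen, 28 of the 28 pairs had an r above 0 and the median over 7 pools was 0.682. Between both sets, GPNMB with LGALS3 then went from 0.48 to 0.922 and CD68 with CD9 from -0.001 to 0.848. The division into sets thus depended on that pool. Without steatosis pools 1 and 4, also chosen after seeing the values, the median over the remaining 6 pools was 0.128 and 17 pairs had an r above 0.

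**Figure D4:**
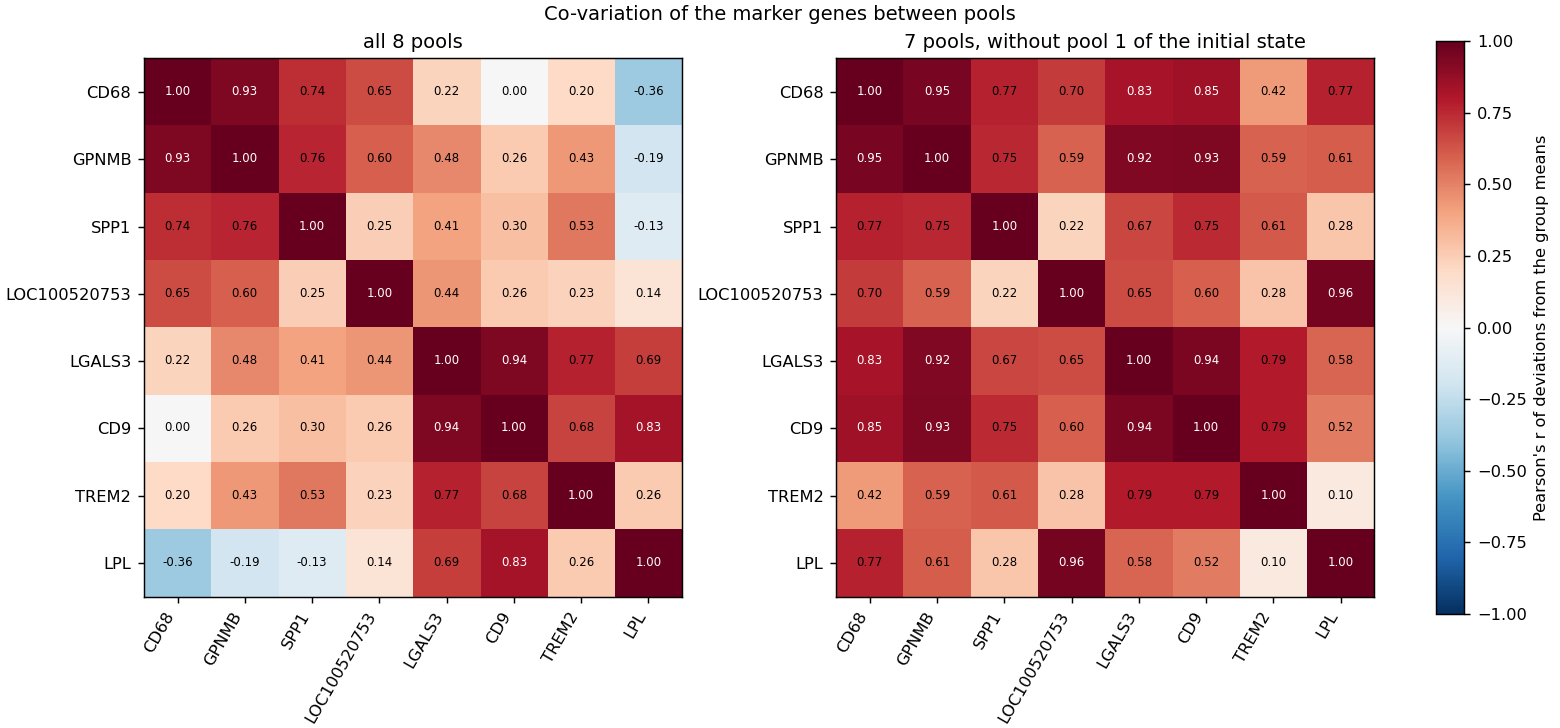
Pearson's r between the deviations of each pair of marker genes from the group means on log2(FPKM + 0.1), over all 8 pools (left) and over the 7 pools without pool 1 of the initial state (right), with red for positive and blue for negative r. The median of the 28 pairs goes from 0.42 on the left to 0.682 on the right, where no pair is below 0.

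The pools of steatosis could also be compared through ratios within a library, which are free of scaling between libraries. In steatosis the FPKM of GPNMB varied between pools with a CV of 39.0%, but GPNMB per CD68 was 18.2, 17.2, 16.0 and 13.8, a CV of 11.6%. LPL per CD68 was 0.196, 0.179, 0.195 and 0.178, a CV of 5.16%. For the other genes the CV per CD68 was 14.6% for LGALS3, 20.4% for TREM2, 23.8% for SPP1, 24.1% for CD9 and 37.4% for LOC100520753. In TREM2 and CD9 it was above the CV of their own FPKM, 19.6% and 13.1%. GPNMB per CD68 was between 1.78 and 2.40 in the initial pools, so this ratio differed 7.58-fold between the means of both groups. Per CD68 the other fold differences were 13.8 for LGALS3, 12.9 for TREM2, 7.16 for LOC100520753, 5.73 for SPP1, 0.833 for CD9 and 0.801 for LPL. For CD9 and LPL, initial pool 1 (1.47 and 0.899) lay above all steatosis pools. The other initial pools were at 0.524 to 0.594 for CD9 and at most 0.0210 for LPL. Per CSF1R, the receptor by which macrophages sense their growth factor, the means differed 41.8-fold for LGALS3, 34.6-fold for TREM2, 21.5-fold for GPNMB, 21.1-fold for LOC100520753 and 16.2-fold for SPP1. Those of CD68 and CD9 per CSF1R differed 2.76-fold and 2.35-fold. Those of LPL per CSF1R differed 3.17-fold, but initial pool 1 (0.379) lay above steatosis pools 1 (0.276) and 4 (0.160).

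The genes most like the 8 marker genes in their deviations between pools were sought among 11326 genes with a mean of at least 1 FPKM. They were AGFG1 (r = 0.995 with the mean standardised deviation of the marker genes, over 8 pools), PYGO1 (0.976), CYBRD1 (0.971), LOC100512727 (0.955), ACADM (0.949), RNF6 (0.948), HGF (0.946), FAM3C (0.944), SLC7A8 (0.941) and FNIP2 (0.939). After scaling by the median ratio the r of AGFG1 was 0.783. The likeness was not computed without initial pool 1. Of the 11326 genes compared, 57 reached an r of 0.9. Only 5 of the 10 genes named were also among the first 10 with a pseudocount of 1, as with scaling by the median ratio. Between the groups, the 10 genes differed in both directions. CYBRD1, a ferric reductase, rose with a log2 fold change of 1.44 (SE 0.21, limma adjusted p = 0.00116), and SLC7A8, an amino acid transporter, rose by 1.39 (SE 0.22, adjusted p = 0.00191). LOC100512727 fell by 1.45 on the log2 scale (SE 0.25, adjusted p = 0.00244). The other 7 did not pass the limits.

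A list of 20 further genes of lipid-associated macrophages was examined next. Of these 18 were in the table with 1 row, 17 were tested, 11 rose (against 6.01% of all genes) and 0 fell, and their median log2 fold change was 1.82. Of the 5 cathepsins listed, 3 rose. CTSD, an aspartic protease, rose from 66.8 ± 5.06 to 360 ± 70.3 FPKM (SD, n = 4), an estimate of 2.41 (SE 0.14, limma adjusted p = 8.5e-06). CTSZ rose with a log2 fold change of 1.70, CTSS with 1.42, the cathepsin inhibitor CSTB with 1.96 and PLD3, a lysosomal nuclease, with 2.06. The ganglioside activator GM2A rose with 1.82. CTSB, the most abundant of the list, measured 434 ± 38.1 and 782 ± 78.0 FPKM (SD), and its log2 fold change of 0.85 stayed under the limit of 1, as did the 0.77 of CTSL, named after its value was seen, the 0.84 of CD63 and the 0.79 of LIPA, the acid lipase of lysosomes. PLIN2, a coat protein of lipid droplets in many cells, had an estimate of -0.68 (adjusted p = 0.0172) and did not pass. Genes named after their values were seen were CAPG (log2 fold change 2.61), FABP5 (3.09), the beta-glucan receptor CLEC7A (2.68), CD36 (2.87, SE 0.59, adjusted p = 0.00651) and FABP4. The call of CD36 was lost in 7 of the 8 fits that left out 1 library, with adjusted p of 0.0138 to 0.0216, and under scaling by the upper quartile (0.0152) or the median ratio (0.0162). FABP4 did not pass (log2 fold change 3.10, SE 0.79, adjusted p = 0.0173), and passed without initial pool 1 (4.09, adjusted p = 6.55e-06).

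In the pathway of TREM2 itself, 3 of 12 genes rose (against 6.01% of all genes) and 0 fell, with a median log2 fold change of 0.50. Those that rose encode the adaptor and proteins downstream of the receptor, but other downstream genes did not pass. TYROBP, its signalling adaptor, rose from 42.8 ± 4.06 to 116 ± 4.66 FPKM (SD, n = 4), by 1.44 on the log2 scale (SE 0.09, limma adjusted p = 1.55e-05), so that it was far above TREM2 in level in both states. LAT2, a scaffold, rose with 1.65 and CARD9, named after its values were seen, with 1.35. SYK (0.97, named after its value was seen) passed only the limit on the adjusted p. It passed both limits without initial pool 3 (1.08) or steatosis pool 1 (1.001). PLCG2 (0.27), HCST (0.16), the phosphatase INPP5D (0.72) and the proteases ADAM17 (0.59) and ADAM10 (0.16), which shed the receptor, did not pass. Neither did the lipoprotein ligands APOE (0.21) and CLU (0.08), which hepatocytes also make in large amounts. Of the TREM receptor family, 3 of 4 genes were in the table, 1 was tested and 0 passed the limma limits, also at an unadjusted p under 0.05.

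Relatives and partners of the marker genes were examined in the same fit. Among galectins, 1 of 6 tested rose: LGALS1, from 22.1 ± 14.7 to 165 ± 22.8 FPKM (SD, n = 4), by 3.08 on the log2 scale (SE 0.34, limma adjusted p = 0.000248). LGALS3BP (1.19, adjusted p = 0.0307) and LGALS9 (0.91, adjusted p = 0.0316) did not pass. With the pool number as a replicate block LGALS3BP did (adjusted p = 0.00502), and both did without initial pool 4 (1.58 and 1.22). Of 9 osteopontin receptors tested, ITGB3 rose from 1.59 ± 0.0858 to 6.85 ± 0.779 FPKM (log2 fold change 2.03), while CD44 (0.52) and ITGB1 (0.27) did not pass. Of 11 tetraspanins and partners of CD9, 0 passed both limits of the limma test and 9 were higher at an unadjusted p under 0.05. CD53 (0.96, adjusted p = 0.000828), CD63 (0.84), CD82 (0.63) and CD81 (0.46) passed the limit on the adjusted p. So did CD151, TSPAN4, CD37 and TSPAN14, named after their values were seen. CD53 passed both limits without pool 4 of the initial state (1.04) or of steatosis (1.03). CD151 did without initial pool 1 (1.01), and CD37 without initial pool 3 (1.08) or steatosis pool 2 (1.025). Of 12 genes that mature, anchor or regulate LPL, 0 rose and 0 fell by limma, with 2 higher and 2 lower at an unadjusted p under 0.05. APOA5, an activator, had an estimate of -0.73 (adjusted p = 0.017), and those of ANGPTL4 (0.06) and APOC2 (0.08) were near 0. Of the MiT/TFE factors, TFEC rose (1.13, adjusted p = 0.00206) and MITF (0.84, adjusted p = 0.0413), TFEB (0.51) and TFE3 (0.46) did not pass. Without initial pool 1 MITF passed as well (1.08, adjusted p = 0.00626). TFEC no longer passed after scaling by the median ratio (0.87) or the upper quartile (0.91), or with a pseudocount of 1 (0.66).

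Macrophages in general were followed by 14 genes, of which 2 rose, and their summed FPKM was 1023 to 1185 in the initial pools and 1334 to 1503 in steatosis. Both that rose were named after their values were seen: MSR1, a scavenger receptor, from 7.32 ± 0.997 to 37.9 ± 6.20 FPKM (SD, n = 4), by 2.35 on the log2 scale (SE 0.14, limma adjusted p = 1.09e-05), and SPI1, the myeloid transcription factor, with 1.5. AIF1 (0.90, adjusted p = 0.00101), CSF1R (0.62), C1QB (0.64), C1QA (0.07) and CD14 (-0.19) did not pass. At an unadjusted p under 0.05, 9 of the 14 were higher and 0 lower. Of 10 genes of resident Kupffer cells, MARCO, another scavenger receptor, was the one that rose, from 4.16, 7.1, 5.83 and 6.38 FPKM to 55.69, 46.96, 42.61 and 108.02 FPKM (log2 fold change 3.33, SE 0.28, adjusted p = 6.19e-05). It was highest in steatosis pool 4, where the marker genes were lowest. VSIG4 (0.94, adjusted p = 0.00205, named after its value was seen) passed, among the alternatives run, only without pool 4 of the initial state (1.05) or of steatosis (1.04). NR1H3 (0.54, adjusted p = 0.00294), CD163 (0.32), CD5L (-0.34) and FOLR2 (-0.08) did not pass. At an unadjusted p under 0.05, 5 of the 10 were higher and 1 lower, and the list summed to 642 to 870 FPKM at the start and 753 to 864 FPKM in steatosis. Of the 6 genes of leukocytes in general, LAPTM5 (1.47), SRGN (1.84) and LCP1 (1.46) rose and PTPRC (0.54) did not pass.

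Markers of other hepatic cells were measured beside these. Of 5 hepatocyte genes tested 0 passed by limma and 2 were lower at an unadjusted p under 0.05, with a median log2 fold change of -0.31 and sums of 53713 to 85594 FPKM at the start and 46721 to 56847 FPKM in steatosis. Of the 5 cholangiocyte genes tested 1 rose, and of the 8 genes of stellate cells and fibroblasts LRAT rose (1.25, named after its value was seen), an estimate that was 0.99 and did not pass after scaling by the median ratio. Of the 6 endothelial genes 0 passed both limits of the limma test and 2 were higher at an unadjusted p under 0.05. How far such changes in the makeup of the tissue bear on the marker genes was not tested.

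**Figure D5:**
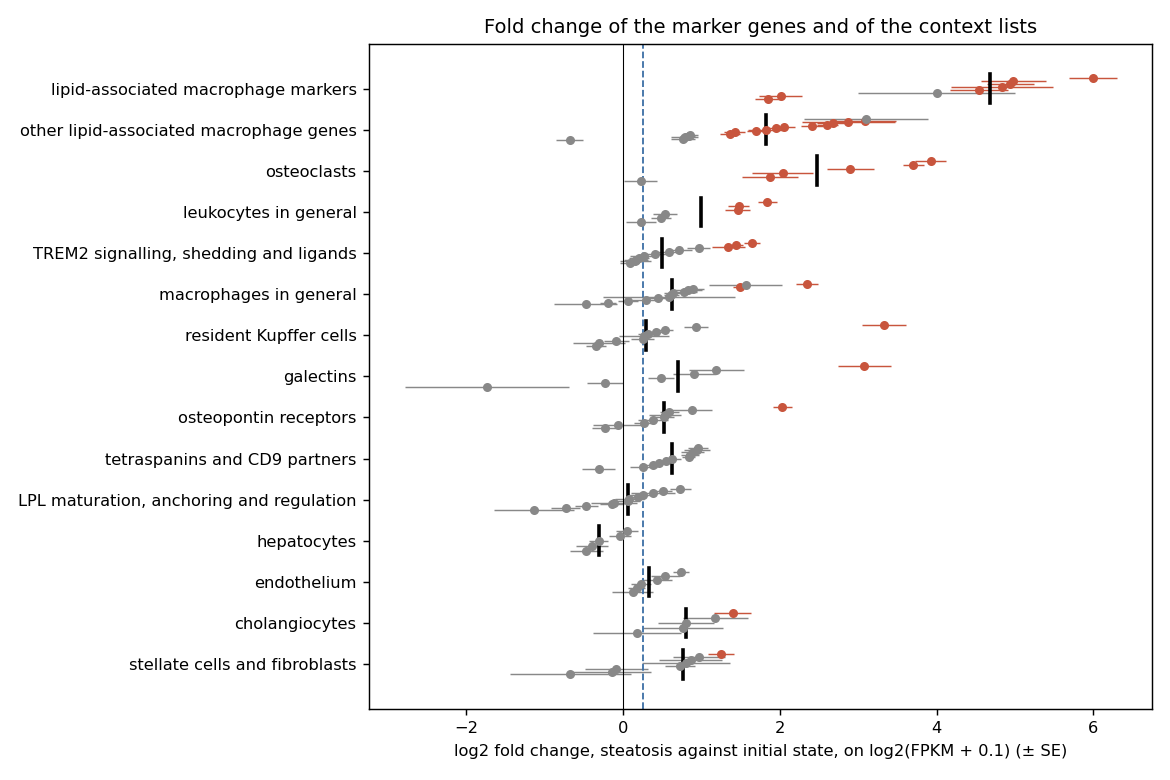
Log2 fold change ± SE, steatosis against the initial state, on log2(FPKM + 0.1) for the 8 marker genes and for the tested genes of 14 lists, with red points for genes past both limits towards higher values in steatosis, grey points for the others, black bars for the median of each list and a dashed line for the median of all 13175 genes (0.25). The marker genes have a median of 4.69, against 1.82 for the further genes of lipid-associated macrophages, 0.63 for macrophages in general and 0.29 for resident Kupffer cells.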

How the data were processed

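RNA libraries were prepared from 8 pools of hepatic RNA. According to the study's methods, clean 100 bp paired-end reads were mapped with HISAT2 2.0.4 to Sus scrofa 11.1, transcripts were assembled with StringTie, and expression was estimated with Bowtie2 2.2.5 and RSEM 1.2.12 (versions from the submitters' processing notes). The authors deposited FPKM values for 17778 known genes and 325 new transcripts, with no stated scaling between libraries. Since depth is not given with FPKM, errors are SDs over pools. The authors also deposited gene lengths and, for each pool number, a fold change, p-value and FDR of a Poisson method. Those comparisons were not used, but their FPKM columns were equal to the main table apart from a floor of 0.01.

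Gene positions were taken from the RefSeq table of Sscrofa11.1, in which all 8 marker genes were found by ID. Genes were tested with limma 3.58.1 in R 4.3.3, with group as the single factor, a variance trend on the mean, and p-values adjusted by Benjamini-Hochberg over 13175 genes. P-values set the difference between the groups against the spread between pools, and no batch was given. Other values were computed with Python 3.11.15, numpy 2.4.6 and pandas 2.3.3, and drawn with matplotlib 3.10.9. The fit was tested on simulated data before use.

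The marker genes and the 23 further lists (184 genes, of which 176 had 1 row in the table and 150 were tested) were chosen with earlier results of these data known. Beside the marker genes, the most abundant genes of each list were named (up to 6, or up to 10 for lipid-associated macrophages and TREM2 signalling), and the 10 genes most like the marker genes. The lists of endothelium, T and NK cells, neutrophils, platelets, melanocytes, osteoclasts, skeletal muscle, adipose tissue and stomach were examined for other sources of RNA.

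The study gives no pairing of the pools. Deviations from the group means correlated at 0.16, 0.35, 0.32 and 0.25 between pools of the same number, all over the limit of 0.1 set for a pairing. Between pools of different numbers they correlated at -0.203 to 0.028. The fit reported has no block by pool number, and the fit with it is given wherever it changed the call of a gene named. With the block, 34 genes of the lists were higher in place of 32, and 3 of the 14 general macrophage genes in place of 2. The log2 fold changes of the marker genes were the same with it and their SEs smaller, 0.175 against 0.652 for LOC100520753. Alternatives were this block, 3 other scalings, a pseudocount of 1, other filters, omission of each library, a stricter limit on the adjusted p (0.001) and the treat test of limma. A few genes of the lists are not reported here by name.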

Additional observations from a re-analysis of the deposited data

Results flagged for a closer look

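A pool far from the other 3 of its group was found for 13 of the 196 groups of 4 pools examined, by Dixon's criterion for the gap to the nearest value over the range, which chance alone meets in about 1 in 20 groups. Of the marker genes only LPL was among them, with 6.59 FPKM in pool 1 of the initial state against 0.05 to 0.27 in the others, a gap of 0.966 of the range. The same pool was the high one for CD36 (6.43 FPKM), FABP4 (44.73), LGALS1 (43.94), ACTA1 (1439.17), ADIPOQ (27.92) and TFF1 (726.95). Pool 4 of the initial state was the high one for LGALS3BP (117.36 FPKM) and LGALS9 (92.31). TYROBP was low in initial pool 1 (36.72 FPKM) and CTSB in initial pool 2 (377.01). ACTA1 in steatosis was 0.04 FPKM in pool 1 and 0 in the others, and DCSTAMP in the initial state was 0.03 FPKM in 1 pool and 0 in the others. The part of RNA from other tissues in the values of initial pool 1 was not tested.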

How the results depend on the processing

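Of 13175 genes, 792 were higher and 44 lower in steatosis. Higher and lower counts were 439 and 73 with scaling to a common upper quartile, 411 and 83 with the median ratio, 418 and 14 at an adjusted p under 0.001, and 68 and 1 with the treat test of limma, which sets the fold limit of 1 within the test. With a pseudocount of 1, 395 were higher. With 1 library left out, 625 to 778 were higher and 26 to 50 lower, with 28 lower without pool 2 of steatosis and 26 without pool 4. The pool number as a replicate block gave 785 and 57, and among the genes named it changed the call of LGALS3BP alone. Of the 8 marker genes 7 passed the limits, also with the block (background 5.96%) and with the median ratio (3.12%). With the treat test 4 passed (0.516%), and with 1 library left out 7 to 8, where all 8 passed without pool 1 of the initial state (5.91%). Of the genes of the lists 32 were higher, 13 with the treat test and 29 to 36 with 1 library left out, and 0 to 1 were lower. The 1 lower gene was ACTA1 without initial pool 1 or pool 2. Of the 10 genes most like the marker genes, 5 were kept with a pseudocount of 1 and 5 with the median ratio. The log2 fold changes of the marker genes kept their sign in every alternative. Values near the smallest recorded FPKM (TREM2, LOC100520753 and LPL in the initial state) limit how exactly their fold changes are known.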

Other observations

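The genes of osteoclasts, the resorbing cells of bone that are also of macrophage origin and express GPNMB, SPP1 and CD68, rose in 5 of the 6 tested, with a median log2 fold change of 2.47. The count was 3 after scaling by the upper quartile or the median ratio, with a pseudocount of 1 and in 4 of the 8 fits that left out 1 library (initial pool 3 or steatosis pool 1, 3 or 4). CTSK and OSCAR were lost each time, save that with the pseudocount DCSTAMP was lost in place of CTSK. ACP5, the tartrate-resistant acid phosphatase, rose from 12.1 ± 1.41 to 189 ± 55.6 FPKM (SD, n = 4 pools; log2 fold change 3.92, SE 0.20, adjusted p = 4.41e-06 from limma), and MMP9, a gelatinase, from 0.470 ± 0.0383 to 7.37 ± 0.977 FPKM (3.71, SE 0.14, adjusted p = 2.07e-06). Over all 8 genes listed, the summed FPKM was 18.6 to 21.0 in the initial pools and 181, 274, 249 and 165 in steatosis pools 1 to 4, with pools 2 and 3 the highest, as for the marker genes.

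Among lymphoid and granulocyte genes, NKG7, of NK and cytotoxic T cells, rose with a log2 fold change of 1.36 (adjusted p = 6.15e-05 from limma), 1 of 7 genes of its list. CSF3R, of neutrophils, rose with 1.49 (adjusted p = 0.00228), 1 of 5. Of the platelet genes 2 were tested, 0 passed the limma limits and 1 was higher at an unadjusted p under 0.05.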
